A study of Mus musculus with 13 samples.

Results

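Interferon-stimulated genes are the genes that cells switch on when they sense interferon, and 9 of them are described here in the cerebral meninges of newborn mice: Irf7, Ifit1, Ifit2, Ifit3, Isg15, Usp18, Oasl2, Rsad2 and Bst2. They were chosen by name, each with the brightest probe set that carries its symbol alone, out of 19938 genes tested. This gave a value for 8 of the 9. Isg15 lies on a probe set that it shares with a second symbol and was therefore not measured. RNA was taken from 13 C57BL6 pups of 1 litter, and each pup had its own Affymetrix array of the Mouse Gene 1.0 ST type. The 4 mutants were Pdgfc-/-; Pdgfra GFP/+, so they lacked the growth factor PDGF-C and carried 1 copy of its receptor gene Pdgfra as a GFP reporter, which is a null allele. The 9 controls were pooled from all other genotypes of the litter: with normal Pdgfra, pups that were Pdgfc+/+, Pdgfc+/- or Pdgfc-/-, and with the Pdgfra GFP/+ allele, pups that were Pdgfc+/+ or Pdgfc+/-. Which control had which genotype is not labelled, so the difference between the groups cannot be assigned to either allele alone.

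Type I interferons bind a receptor on nearly every cell and, through JAK kinases, assemble a transcription factor complex that holds IRF9 and binds interferon-stimulated response elements in the promoters of antiviral genes. Interferon-gamma acts through its own receptor on an overlapping set of genes. A low level of this programme is present in uninfected tissue, where macrophages, microglia and endothelial cells are among the cells that express it. Macrophages and blood vessels are part of the meninges, while microglia belong to the brain underneath.

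The core of the interferon-stimulated response element was searched as GAAA, any 2 bases and GAAA again on both strands in RefSeq promoter windows (build GRCm38.p6, 250 bases before to 50 bases after the start of the gene). It was present in 3.44% of 32851 windows. Of the 8 genes measured, 7 had a window (all but Usp18), and 4 of these held the motif. The stretch from 180 to 61 bases before the start is shown for these 4 because it holds each of their matches, on the strand of the gene, 5′ to 3′, with the matches in capitals, either as spelled above or as the reverse complement. The stretches lie at chr19:34583349-34583468 (plus strand) for Ifit3, chr19:34640709-34640828 (plus strand) for Ifit1, chr8:71537533-71537652 (minus strand) for Bst2 and chr12:26456513-26456632 (minus strand) for Rsad2.
Ifit3: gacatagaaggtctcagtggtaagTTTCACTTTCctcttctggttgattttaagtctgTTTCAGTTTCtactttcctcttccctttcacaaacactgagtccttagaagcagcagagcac
Ifit1: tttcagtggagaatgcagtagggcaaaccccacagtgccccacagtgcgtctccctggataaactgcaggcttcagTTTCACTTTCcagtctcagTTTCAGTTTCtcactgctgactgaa
Bst2: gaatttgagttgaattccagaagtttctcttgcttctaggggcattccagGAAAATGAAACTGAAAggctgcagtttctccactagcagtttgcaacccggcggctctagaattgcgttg
Rsad2: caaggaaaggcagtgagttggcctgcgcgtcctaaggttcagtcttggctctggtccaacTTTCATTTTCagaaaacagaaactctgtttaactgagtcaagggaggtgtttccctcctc
Ifit3 and Ifit1 each held 2 separate matches, whose first bases lay 156 and 122 bases before the start in Ifit3 and 104 and 85 bases before it in Ifit1. Both genes carried the same pair of spellings in the same order, TTTCACTTTC and then TTTCAGTTTC. Bst2 held 2 matches that overlap by 4 bases and read as 1 run, and Rsad2 held 1. The window of Isg15 held 3 overlapping matches, while those of Irf7, Ifit2 and Oasl2 held none, which says only that these letters were not in these windows. A match is a description of the sequence and not a bound site.

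All values are intensities on a linear scale as deposited, and differences are mutant minus control on the scale of log2(intensity + 16), with the standard error (SE) of a limma fit over all 13 mice and Benjamini-Hochberg adjustment over all 19938 genes. Rises and falls are those with an adjusted p under 0.05. Of the 8 genes, 4 fell (Ifit3, Bst2, Usp18 and Ifit2) and 0 rose, where 6.31% of all genes tested fell and 8.58% rose. In 3 genes the fall exceeded 2-fold, against 0.792% of all genes. In 2 genes, Ifit3 and Bst2, every mutant lay below every control, against 3.04% of all genes, and in 0 did every mutant lie above every control, against 6.4%. The median difference of the 8 genes was -0.77 and all 8 differences were negative, where the median over all genes was 0.0043. The nominal p was under 0.05 in 7 of the 8. The tissue is a mixture of cells, so fewer cells of a type and less RNA per cell cannot be told apart.

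**Figure D1:**
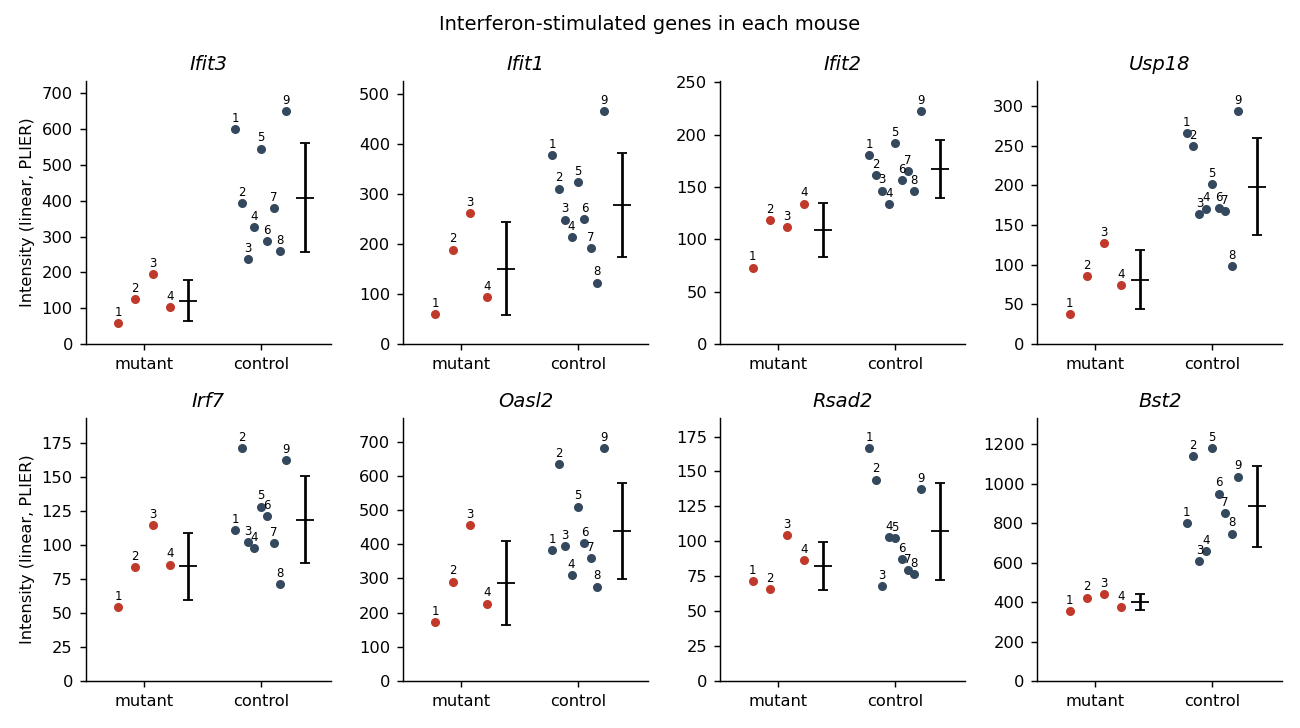
Deposited intensity (linear, vertical axis) of each of the 8 measured genes in 4 mutants (red, left) and 9 controls (dark blue, right), with the number of the mouse beside each point and the mean and SD of the group as a bar. In Ifit3 and Bst2 the 4 mutants lie below the 9 controls, and in the other 6 panels the groups overlap.

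The 3 IFIT genes encode related proteins that bind viral RNA and hold back its translation, and in the RefSeq annotation they neighbour each other on chromosome 19. Ifit3 had intensities of 59.9, 126, 196 and 104 in mutants 1 to 4, against a lowest value of 237, a median of 381 and a highest value of 650 in controls. Mutant 3, the highest of its group, was still below control 3, the lowest of its own. The means were 121 ± 56.8 in mutants and 409 ± 153 in controls (SD, n = 4 and 9), a log2 difference of -1.64 (SE 0.27, adjusted p = 0.000153), or 3.12-fold lower in mutants. Ifit3 has a near-identical copy, Ifit3b, and how the probes divide signal between them is not known. Ifit3b, looked up for this likeness, also fell, with 29.3 ± 11.8 in mutants and 70.1 ± 27.1 in controls (log2 difference -0.89, SE 0.23, adjusted p = 0.00943).

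Ifit1 had intensities of 59.5, 189, 262 and 93.4 in mutants 1 to 4, against 123, 249 and 465 as the lowest, median and highest of the controls. Mutants 1 and 4 lay below all controls, while mutants 2 and 3 lay within their range. The log2 difference was -0.91 (SE 0.31) and did not pass the test (adjusted p = 0.0533). Its 95% interval ran from -1.56 to -0.27.

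Ifit2 had intensities of 73.2, 118, 111 and 134 in mutants 1 to 4, against a lowest value of 134, a median of 162 and a highest value of 222 in controls. Mutants 1, 2 and 3 lay below all controls, and mutant 4 was level with control 4, the lowest of the controls. The means were 109 ± 25.9 in mutants and 167 ± 27.4 in controls, a log2 difference of -0.56 (SE 0.15, adjusted p = 0.0138). Ifit2 thus fell, but without mutant 1 the difference was -0.41 and no longer passed (adjusted p = 0.0965).

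Usp18 encodes the protease that removes ISG15 from proteins and also blocks the type I interferon receptor from within the cell. Its intensities were 37.5, 86.0, 128 and 74.6 in mutants 1 to 4, against a lowest value of 98.2, a median of 172 and a highest value of 293 in controls. Only control 8 lay within the range of the mutants, and the other 8 controls were above mutant 3. The means were 81.4 ± 37.1 in mutants and 198 ± 61.0 in controls, a log2 difference of -1.17 (SE 0.24, adjusted p = 0.00181), or 2.24-fold lower in mutants. The call ended with Xist as a covariate (adjusted p = 0.0505) and with unequal variances (adjusted p = 0.146).

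Irf7 encodes the transcription factor that amplifies type I interferon production and is itself induced by interferon. Its intensities were 54.0, 83.4, 114 and 85.5 in mutants 1 to 4, against 71.1, 111 and 171 as the lowest, median and highest of the controls. Only mutant 1 lay below all controls, and mutant 3 was above the control median. The log2 difference was -0.42 (SE 0.19, adjusted p = 0.173), with an interval from -0.82 to -0.03.

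Oasl2, a mouse member of the 2′-5′ oligoadenylate synthetase family, had intensities of 172, 290, 455 and 226 in mutants 1 to 4, against a lowest value of 276, a median of 394 and a highest value of 681 in controls. Mutants 1 and 4 lay below all controls, and mutant 3 lay above the control median. The log2 difference was -0.62 (SE 0.24) and did not pass the test (adjusted p = 0.0938).

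Rsad2 encodes viperin, a radical SAM enzyme that makes a chain-terminating nucleotide. It had intensities of 71.3, 65.9, 105 and 86.8 in mutants 1 to 4, against 67.7, 102 and 167 as the lowest, median and highest of the controls. The groups overlapped almost completely, with 1 mutant below the lowest control. Its log2 difference of -0.29 (SE 0.19, adjusted p = 0.449) was nearest to 0 among the 8 genes, and its interval ran from -0.70 to 0.11.

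Bst2 encodes tetherin, a membrane protein that holds budding virions at the cell surface and is present in many cells without interferon. Its intensities were 353, 423, 441 and 376 in mutants 1 to 4, against a lowest value of 609, a median of 852 and a highest value of 1182 in controls. The mutants were close to each other and all below control 3, the lowest of the controls. The means were 398 ± 40.6 in mutants and 887 ± 205 in controls, a log2 difference of -1.10 (SE 0.17, adjusted p = 7.48e-05), or 2.14-fold lower in mutants.

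The genes also varied together from mouse to mouse within each group. Mutant 1 had the lowest value of the 4 mutants in 7 of the 8 genes, the exception being Rsad2, and mutant 3 had the highest in 7 of the 8, the exception being Ifit2. Among the controls, control 9 was the highest in 5 genes, control 8 the lowest in 4 and control 3 the lowest in 3. After each array was centred on its median and the group means were removed, the Pearson correlation of a gene with the mean of the other 7 over the 13 mice was 0.97 for Usp18, 0.951 for Ifit1, 0.931 for Irf7, 0.917 for Oasl2, 0.884 for Ifit3, 0.814 for Ifit2, 0.771 for Rsad2 and 0.765 for Bst2. Rsad2 and Bst2 followed the others least. All genes of a mouse share 1 RNA sample and 1 array, so these are descriptions without a test.

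**Figure D2:**
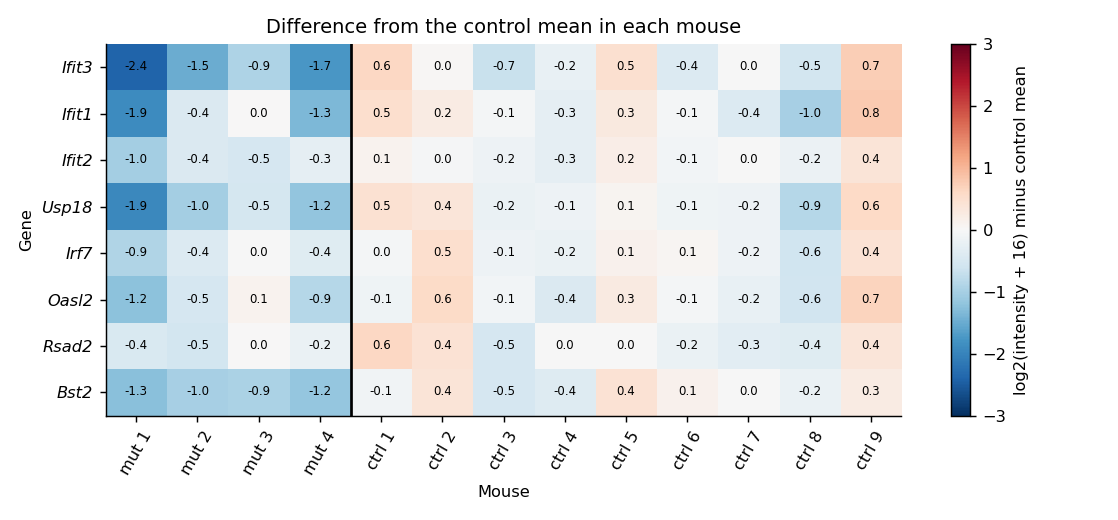
Each cell gives log2(intensity + 16) of 1 gene (rows) in 1 mouse (columns, 4 mutants left of the line and 9 controls right of it) minus the mean of the controls, with blue for lower and red for higher. The column of mutant 1 is the most negative of the mutants in all rows but Rsad2, and the row of Bst2 is even across the mutants.

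Among 9962 genes in the brighter part of the arrays, those whose pattern was most like the mean of the 8 genes on the same centred values were Gbp11 (Pearson 0.957, Spearman 0.945), Iigp1 (0.951, 0.956), Rtp4 (0.947, 0.934), Xaf1 (0.937, 0.863), Parp9 (0.932, 0.929), Gbp9 (0.929, 0.951), Gbp3 (0.906, 0.918), Irgm1 (0.905, 0.912), Ifih1 (0.903, 0.890) and Stat2 (0.903, 0.846), over 13 mice. Of these 10, the 4 genes Gbp11, Gbp9, Iigp1 and Rtp4 fell in mutants, by 0.76, 0.78, 0.93 and 0.83 on the log2 scale. The other 6 had negative differences that did not pass the test, the smallest being -0.23 for Ifih1.

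The arrays differed in brightness. The median intensity of the array was 89.7, 67.3, 56.0 and 85.9 in mutants 1 to 4, against 44.1 to 89.0 in controls. Among the mutants the mean log2 value of the 8 genes was lowest on the brightest array (6.67, mutant 1) and highest on the dimmest (7.71, mutant 3). The controls showed no such order: of the 2 brightest control arrays, control 9 had a mean of 8.59 and control 4 a mean of 7.81, and control 6, the dimmest, had 7.96. Without the 4 dimmest arrays (mutant 3 and controls 1, 3 and 6), 7 of the 8 genes fell, and 6.23% of all genes. Mutant 3, left out here, had the highest value of the mutants in 7 of the 8 genes.

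**Figure D3:**
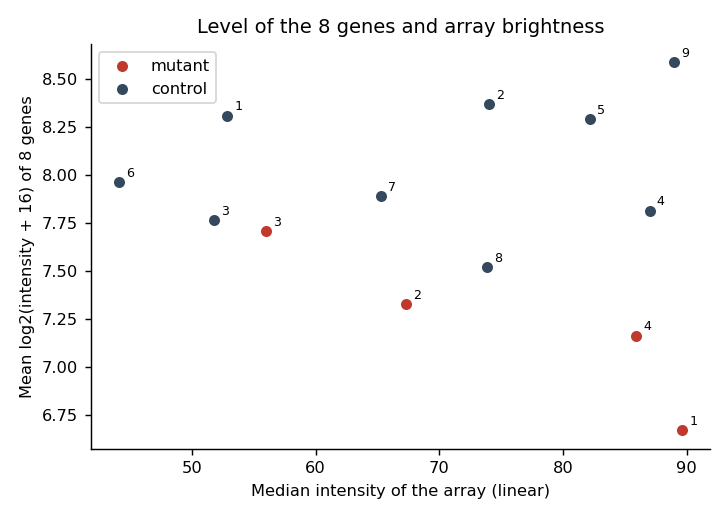
Mean log2(intensity + 16) of the 8 genes (vertical axis) against the median intensity of the array (horizontal axis, linear) for each of 4 mutants (red) and 9 controls (dark blue), numbered by mouse. In mutants the mean is lowest on the brightest array (6.67, mutant 1) and highest on the dimmest (7.71, mutant 3), while the bright control arrays hold both a high mean (8.59, control 9) and a low one (7.81, control 4).

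Scaling between arrays set the zero of these differences. With quantile normalization, or with each array centred on its median, on a set of reference genes or on markers of meningeal fibroblasts, all 8 genes kept a negative difference, and the median difference lay between -0.87 and -0.63. Further scalings, added after the data were seen, centred each array on markers of a cell type that were themselves lower in mutants and moved the median of all genes to 0.65 (endothelial), 0.66 (microglia) and 1.53 (border macrophage). On the endothelial and microglia scales Irf7, Ifit2, Oasl2 and Rsad2 turned positive while Ifit3, Usp18, Bst2 and Ifit1 stayed negative, and on the border macrophage scale all but Ifit3 turned positive. Centring shifts every gene of an array alike, so it cannot change where the 8 genes lie relative to all genes: their median stayed 0.77 below that of all genes, and the sign on these scales follows from the shift. Quantile normalization, which can change it, gave -0.83 relative to all genes, with all 8 genes below the all-gene median.

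**Figure D4:**
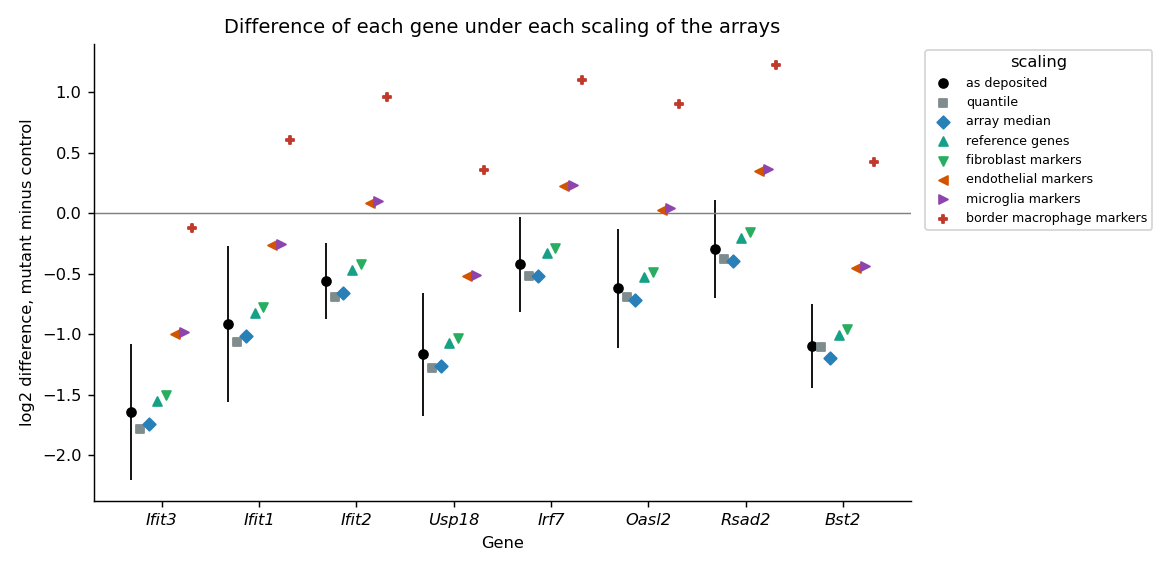
Log2 difference, mutant minus control (vertical axis), of the 8 genes (horizontal axis) on the deposited scale (black circles, with the 95% interval) and under 7 other scalings of the arrays (symbols). All are below 0 on the deposited, quantile, array median, reference gene and fibroblast scales, while 4 turn positive on the endothelial and microglia scales and all but Ifit3 on the border macrophage scale, where the medians of all genes are 0.65 (endothelial), 0.66 (microglia) and 1.53 (border macrophage).

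Markers of the cell types that the dissected tissue can hold moved between the groups as well. Of 10 endothelial markers, 6 fell, with a median difference of -0.80 and a summed intensity of 5530 to 7280 in mutants and 7770 to 16400 in controls. Kdr and Tek, which encode vascular growth factor receptors, fell by 0.93 and 0.89 on the log2 scale. Of 9 microglia markers, 7 fell, Csf1r and Fcrls among them (by 1.00 and 0.94), Tmem119 rose and Sall1 did not pass (-0.27). The sums of these 9 markers were 2130 to 3040 in mutants and 3390 to 4780 in controls. Of 10 border macrophage markers, 9 fell, with a median of -1.54 and sums of 2060 to 4360 in mutants and 6730 to 9420 in controls, and Cbr2 and Folr2 fell by 2.37 and 2.11. All 10 neuron markers rose, with a median of 3.29 and sums of 11700 to 14700 in mutants and 1370 to 3690 in controls, Nefl and Snap25 by 3.76 and 3.56. The sums of 10 meningeal fibroblast markers overlapped almost fully, with 22400 to 32900 in mutants and 22800 to 32100 in controls, although Ogn fell by 1.09 and Col3a1 rose by 0.53. No marker of these lists was at 0 in any mouse. The part of these cell types in the falls of the interferon-stimulated genes was not tested.

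Of the cell types known for high interferon output or for passing through blood, plasmacytoid dendritic cell markers had a median difference of -0.02 (of 6, Tcf4 rose and Ccr9 fell, both by 0.46), T and NK cell markers 0.05 (0 of 7 called) and erythroid markers -0.13 (0 of 5 called). Neutrophil markers had a median of -0.17, and of 8 S100a8 and S100a9 fell, by 0.76 and 0.72. B cell markers had a median of -0.09, with 0 of 7 called. Most probe sets of the T and NK and B lists were dim, so a change in these cells could be missed. The summed intensity of T and NK markers was 319 to 574 in mutants and 274 to 521 in controls. That of B cell markers was 211 to 437 in mutants and 188 to 484 in controls. In the plasmacytoid list Tcf4 was bright, with means of 2016 in mutants and 1458 in controls, against 47.2 and 70.2 for Ccr9. Astrocyte markers had a median of -0.06, and 3 of 8 fell, Gjb6 by 1.21, Atp1b2 by 0.89 and Slc1a3 by 0.60. The other 5 did not pass, and the 8 differences were split in sign, from -1.21 to 0.49 with 5 negative. In the lists with 0 called by limma, 0 markers had a nominal p under 0.05.

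The targeted gene and the sex of the pups bear on how the groups compare. Pdgfc had intensities of 22.8, 27.9, 22.8 and 29.3 in mutants 1 to 4, against a lowest value of 5.88, a median of 151 and a highest value of 275 in controls. Control 2 alone was below the mutants, and Pdgfc-/- is among the genotypes pooled as controls. The part of Pdgfc that the probe set covers is not given in the sources used here. Pdgfra was at 788, 1116, 848 and 1561 in mutants 1 to 4, against 1039, 1921 and 2255 as the lowest, median and highest of the controls (log2 difference -0.71, adjusted p = 0.0276). Xist, the transcript that silences an X chromosome in females, was at 2.24 to 4.77 in mutants and, in controls 1, 5 and 8, at 4.78 to 8.73. The other 6 controls lay between 536 and 1020. The Y-linked gene Eif2s3y was at 358.5 to 556.4 in mutants and at 408, 449 and 515 in controls 1, 5 and 8. In the other 6 controls it lay between 1.64 and 3.76. By these 2 genes all 4 mutants were male and 6 of the 9 controls female, so sex was not balanced between the groups. In the 3 male controls (1, 5 and 8) Bst2 was at 800, 1182 and 748 and Ifit3 at 601, 545 and 260, all above the highest mutants (441 and 196). Usp18 was at 266, 202 and 98.2 in them, and control 8 lay below mutant 3. With Xist as a covariate 2 genes fell, Bst2 (difference -1.14, adjusted p = 0.00196) and Ifit3 (-1.85, adjusted p = 0.00138), while Usp18 (-1.05, adjusted p = 0.0505) and Ifit2 (-0.61, adjusted p = 0.0771) did not pass.

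Around these 8 genes, 118 other genes of the interferon pathway were measured, in 9 lists. Of these, 28 fell, 1 rose and the median difference was -0.27, against 6.31% of all genes that fell and a median of 0.0043 over all genes. Without mutant 1, 13 of the 118 fell, and 3.90% of all genes. The median of the 118 was also negative with quantile normalization (-0.32) and with arrays centred on their median (-0.37), reference genes (-0.18) or fibroblast markers (-0.13). Centring on endothelial, microglia or border macrophage markers made it positive (0.38, 0.39 and 1.25) by raising all genes alike, to medians of 0.65, 0.66 and 1.53.

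**Figure D5:**
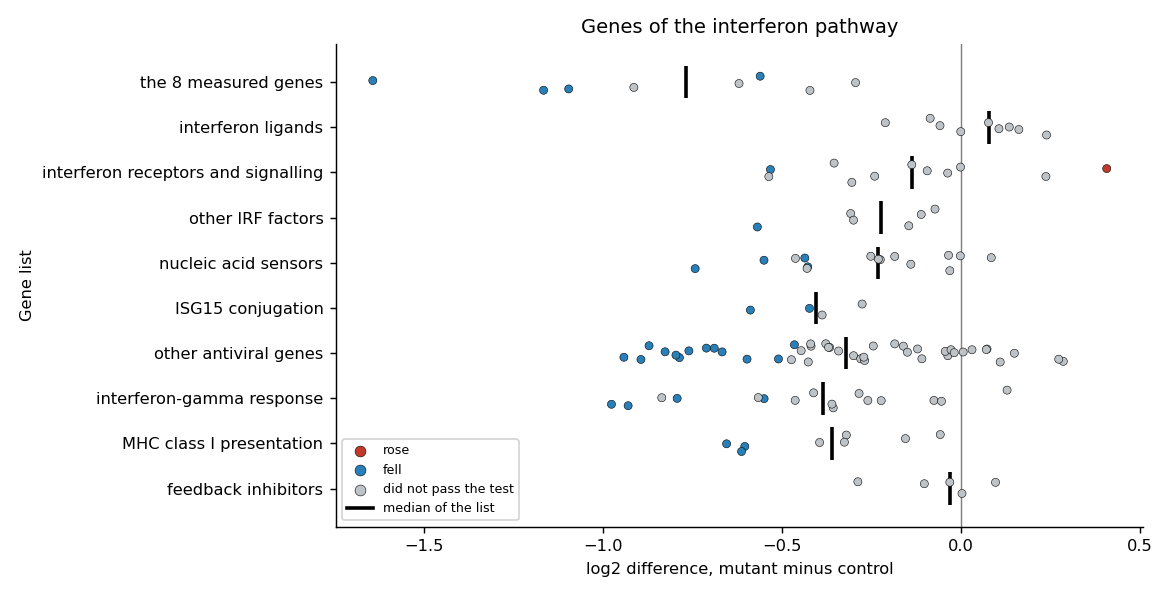
Log2 difference, mutant minus control (horizontal axis), of the 8 measured genes and of 118 other genes of the interferon pathway in 9 lists (rows), with 1 point per gene in blue where it fell, red where it rose and grey where it did not pass the test, and the median of each list as a bar. Points lie mostly left of 0 on this deposited scale, apart from the ligands, and centring on endothelial, microglia or border macrophage markers, which raises the median of all genes to 0.65, 0.66 and 1.53, moves every point right by the same amount, so that the medians of the 9 lists become positive, and that of the 8 genes with the last.

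The interferon genes themselves did not pass the test: 0 of 9 ligands were called (0 at a nominal p under 0.05 by limma), with a median of 0.08 that was -0.02 with arrays centred on their median. Their probe sets were mostly dim. Ifnb1, the interferon-beta gene, averaged 42.6 ± 10.3 in mutants and 41.4 ± 17.4 in controls, and Ifng, the interferon-gamma gene, 29.9 ± 14.3 in mutants and 26.8 ± 11.4 in controls. The interferon-alpha genes Ifna4, Ifna2 and Ifna12 had differences of -0.21, 0.16 and 0.14 at mean intensities between 16.5 and 23.2. Ifnl2, an interferon-lambda gene, had a difference of 0.24.

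Of 11 receptor and signalling genes, 1 fell and 1 rose (9.09% each), near the shares of all genes (6.31% and 8.58%). Il10rb, a subunit shared by the receptors for interferon-lambda and IL-10, had means of 472 ± 112 in mutants and 679 ± 84.5 in controls (log2 difference -0.53, adjusted p = 0.0156). Ifngr2, the signalling subunit of the interferon-gamma receptor, rose, with means of 885 ± 147 in mutants and 659 ± 62.4 in controls (0.41, adjusted p = 0.0368). The call of Ifngr2 was lost when mutant 1, 2 or 4 or any of controls 3 to 8 was left out. Irf9, the DNA-binding part of the complex that type I interferons assemble, had a difference of -0.54 (adjusted p = 0.0684). Ifnar2 and Ifngr1 had differences of -0.30 and -0.35 and did not pass either.

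Among 6 other IRF factors, Irf3, which switches on interferon-beta after viral RNA or DNA is sensed, fell, with means of 235 ± 41.1 in mutants and 356 ± 50.3 in controls (-0.57, adjusted p = 0.00782). Irf5, Irf1, Irf2 and Irf8 had differences between -0.31 and -0.11 and did not pass. Of 15 sensors of foreign nucleic acid and their adaptors, 4 fell. Ddx58, which encodes the RNA sensor RIG-I, was at 152, 250, 260 and 259 in mutants 1 to 4, against 319, 369 and 502 as the lowest, median and highest of the controls. All mutants lay below all controls (-0.74, SE 0.16, adjusted p = 0.00225). Eif2ak2, the RNA-activated kinase PKR, was also lower without overlap, at 172 to 306 in mutants and 311 to 489 in controls (-0.55, adjusted p = 0.0140). Dhx58 and Tlr8 fell by 0.43 and 0.44, close to the threshold (adjusted p = 0.0491 and 0.0497), and Mavs, the adaptor of RIG-I, had a difference of -0.46 that did not pass.

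Isg15 itself was not measured, but 2 of the 4 genes for its attachment to proteins fell: Herc6, the main mouse ligase for ISG15 (-0.59, 57.2 ± 15.2 in mutants and 93.3 ± 18.5 in controls), and Trim25, a ubiquitin and ISG15 ligase that activates RIG-I (-0.42). Uba7 and Ube2l6, its activating and conjugating enzymes, had differences of -0.39 and -0.28 that did not pass.

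Of 44 other antiviral and interferon-induced genes, 13 fell and 0 rose, with a median of -0.32. The 5 with the smallest adjusted p were Ifi27 (-0.94), Slfn5 (-0.87), Nmi (-0.79), Ifi35 (-0.67) and Trim21 (-0.80), of which Trim21 encodes an antibody receptor of the cytosol and Nmi and Ifi35 encode partner proteins. Ifi27 was at 370 to 665 in mutants and 892 to 1198 in controls, so that all mutants lay below all controls. Of the 44 differences 36 were negative, and 23 genes had a nominal p under 0.05 by limma. In this list 31 genes did not pass, and the differences ran from -0.94 to 0.29.

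Of 16 genes of the interferon-gamma response, 4 fell. Gbp4, Gbp7 and Gbp5 encode guanylate-binding proteins, GTPases that attack the compartments of intracellular microbes, and Iigp1 encodes a related GTPase. They had differences of -0.98, -0.79, -0.55 and -0.93, and Gbp3 had -0.57 and did not pass (adjusted p = 0.0604). Gbp4 was at 150 to 214 in mutants and 274 to 476 in controls. Of 8 genes for presentation of peptides on MHC class I, 3 fell: B2m, the light chain of class I (-0.65), Tapbp, which loads peptides (-0.61), and Psmb8, a subunit of the immunoproteasome (-0.60). B2m was at 1479 to 2534 in mutants and 2601 to 4179 in controls, without overlap. Psmb9 and Tap2 had differences of -0.39 and -0.32 and did not pass.

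Of 5 other feedback inhibitors of interferon signalling 0 were called (1 at a nominal p under 0.05 by limma), and their median was -0.03, which was 0.06 with arrays centred on reference genes and 0.11 on fibroblast markers. Usp18, which blocks the type I interferon receptor, is counted among the 8 genes and not in this list, and it fell 2.24-fold. Ptpn2, a phosphatase that acts on JAK kinases, had a difference of -0.29, and Trex1 and Pias1 had -0.10 and -0.03. Socs1 averaged 46.6 ± 6.43 in mutants and 46.7 ± 8.51 in controls, and Socs3 88.3 ± 29.5 in mutants and 81.4 ± 25.1 in controls.

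The response element motif was also counted over all genes. Of 15614 tested genes with a promoter window, 6.31% fell and 8.54% rose. Among the 607 of them with the GAAA motif, 65 fell (10.7%) and 38 rose (6.26%). A second motif, searched in the same windows and not described here, was held by 1403 of the genes, of which 6.06% fell and 7.13% rose. Of 91 pathway genes with a window, 30 held the GAAA motif. These 30 and Ifit3, Ifit1, Bst2 and Rsad2 are among the 607 and were not taken out. The share of the 607 that fell is therefore not independent of the calls given above. Within the 7 measured genes with a window the motif did not divide those that fell from those that did not. Ifit3 and Bst2 fell and held 2 matches each, Ifit1 held 2 and Rsad2 1 without passing the test, and Ifit2 fell with none in its windows. Usp18, which also fell, had no window.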

How the data were processed

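RNA of 13 mice (4 mutants, 9 controls) was measured, 1 array per mouse. The authors processed the raw array data with PLIER, and the deposited values are linear intensities of 35557 probe sets. The PLIER version, the build of the array annotation and any scaling between arrays are not given in the sources used here, and the array medians differ. No step was applied to raw data. Arrays have no read depth, so their number limits the precision, and p-values measure the spread between pups of 1 litter.

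Probe sets were named from the platform table: 21789 carried 1 symbol, 1621 carried several and 12147 were not listed. Of the first, 21698 were matched to RefSeq by gene ID and 0 symbols changed. A gene with several probe sets (999 genes) was represented by the one with the highest mean. Intensities were used as log2(intensity + 16), which understates the change of genes near or under 16, in a two-sided moderated test (lmFit, eBayes) of limma 3.58.1 under R 4.3.3. P-values were adjusted by Benjamini-Hochberg over 19938 genes, with a threshold of 0.05. The fit was tested on simulated data with known changes.

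The 9 genes, the pathway and marker lists and the tests were chosen with earlier results of these data known. Named genes were the 9 genes, up to 5 genes of each pathway list and 2 of each marker list with the smallest adjusted p, and the 10 genes most like the mean of the 8 measured in their pattern over the mice. Ifit3b, Ifnb1, Cxcl10, the marker genes Tmem119, Sall1 and Slc1a3 and the targeted genes were added to these. One gene of the pathway is not reported here. Where a listed gene had no value under the same rule, it was left out of the counts. The motif and promoter sequences came from RefSeq windows of 300 bases. Python 3.11.15 with matplotlib 3.10.9 drew the figures.

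Alternatives were quantile normalization, centring on the array median, reference genes or fibroblast markers, constants of 1 and 32, dropping the dimmest 25% or 50% of genes, the mean of the probe sets of a gene, all probe sets, the methods' t-test, array quality weights, unequal variances, robust variances with an intensity trend, a covariate for Xist, a replicate block, leaving out each mouse and leaving out the 4 arrays of lowest median. Centring on endothelial, microglia and border macrophage markers was added after the data were seen.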

Additional observations from a re-analysis of the deposited data

Results flagged for a closer look

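The 8 measured genes and the named genes of the pathway lists were examined for a mouse standing apart from the rest of its group by more than Dixon's 95% critical value, in 110 groups of values of 55 genes, of which chance alone flags about 1 in 20. There were 6 such values. In mutant 1 Irf9 was at 123, where the other mutants lay between 264 and 273. In the same mouse Ddx58 was at 152 (the next lowest mutant 250) and Nmi at 163 (the next lowest 252). Mutant 1 was also the lowest mutant in 7 of the 8 measured genes. Among the controls, Irf2 was at 220 in control 2 (the next highest 175) and Eif2ak2 at 489 in control 9 (the next highest 388). Cxcl10, a chemokine induced by interferon-gamma and chosen after its values were seen, was at 509 in control 1, with mutants at 31.8 ± 6.22 (SD, n = 4) and the other controls between 34.4 and 81.3.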

How the results depend on the processing

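Apart from the marker scales described last, the differences of the 8 genes kept their sign throughout, with the same side of the threshold in 217 cases, a call gained in 15 and a call lost in 7. The count of these genes that fell, 4 as reported, was 1 with unequal variances (Bst2), 2 with Xist as a covariate, 7 without the 4 dimmest arrays, and between 3 (without mutant 1) and 6 (without mutant 3) with single mice left out. The share of all genes that fell was 2.01% with unequal variances, 3.03% with Xist and 6.23% without the 4 dimmest arrays. With single mice left out it lay between 3.90% and 7.47%, and it was 3.90% without mutant 1 and without mutant 3. The count over 2-fold, 3 as reported, was 1 with unequal variances and between 2 and 4 with single mice left out. Over all 19938 genes this count was 158 as reported, 113 with unequal variances and between 131 and 226 with single mice left out. At the threshold of the methods' t-test 3 of the 8 genes were lower, and 159 of all genes. Ifit3 with unequal variances had an adjusted p of 0.0636 and Usp18 of 0.146. Without mutant 3, Ifit1 (-1.22, adjusted p = 0.0126) and Oasl2 (-0.86, adjusted p = 0.0192) passed, and Ifit1 also passed without control 4, 6 or 8. Rsad2 was not tested without the dimmest 50% of genes.

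Of the other pathway genes, 28 fell as reported, 58 with quantile normalization, 58 with array medians centred, 46 with array weights, 43 without the 4 dimmest arrays, 10 with Xist, 7 with unequal variances, and between 13 (without mutant 1) and 35 with single mice left out. Calls over all genes moved too, with 2023 that fell with array weights, 1242 without the 4 dimmest arrays, 605 with Xist and 400 with unequal variances. Between 777 and 1490 of all genes fell with single mice left out. The 1 that rose became 2 on reference genes, 3 on fibroblast markers, 0 on array medians, with unequal variances or with Xist, and between 0 and 1 with single mice left out. Replicate numbers shared by mutants and controls did not pair the mice (correlations of -0.344, 0.162, 0.307 and -0.0926). With the replicate block, which rests on mutants and controls 1 to 4, 8 pathway genes fell, 0 rose, and Ifit2 had an adjusted p of 0.218. In the same fit 2.73% of all genes fell and 6.44% rose.

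On the added marker scales the 8 genes gave 1 (endothelial), 2 (microglia) and 0 (border macrophage) that fell, 0 over 2-fold on each, and 5 that rose on the last. Of the 118 pathway genes 0, 1 and 0 fell and 38, 68 and 117 rose, where 67.5%, 89.8% and 99.5% of all genes rose. On the endothelial scale the differences of Ifit2, Irf7, Oasl2 and Rsad2 were 0.088, 0.23, 0.029 and 0.35, and on the microglia scale 0.10, 0.24, 0.041 and 0.37. On the border macrophage scale they were 0.96, 1.10, 0.90 and 1.23, with Bst2 at 0.43, Ifit1 at 0.61 and Usp18 at 0.36. These scales moved all genes up by construction. Over all genes, 1710 rose and 1258 fell as reported, against 2668 and 3617 with quantile normalization, 1808 and 2862 on array medians, 2754 and 1311 on reference genes and 3026 and 1042 on fibroblast markers. The cause of the other changes was not tested.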
